A study of Mus musculus with 21 samples.

Results

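The genes described here are the D-type cyclins, the kinases they and cyclin E1 work with, and 3 inhibitors of those kinases: Ccnd1, Ccnd2, Ccnd3, Cdk4, Cdk6, Ccne1, Cdk2, Cdkn1b, Cdkn1c and Cdkn2c. They were found in the deposited table by Entrez identifier through the listed mouse symbols, and all 10 of 10 were present among its 30519 genes. Their levels were described in 21 low-input RNA-seq libraries of mouse bone marrow cells sorted by flow cytometry, either blood stem cells (HSC) or MEP, the bipotent progenitors of megakaryocytes and red cells. The study's title asks how a germline mutation of ETV6, a transcriptional repressor of the ETS family, disturbs blood formation through a nuclear export signal.

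Cells carried wild-type Etv6 (WT), the substitution P216L, the substitution S211I, or both (called double mutant here). For S211I, a second label field has P211I, and the spelling in the sample titles is used. The HSC held 3 WT, 3 P216L, 2 S211I and 3 double-mutant libraries, and the MEP held 2 WT (replicates 1 and 3), 3 P216L, 2 S211I and 3 double-mutant libraries. The labels give no agent, age, sex or zygosity, no sorting gate and no pooling of animals. They do not say that replicates came from separate animals, so the p-values measure the spread between these libraries, which may be technical.

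D-type cyclins are the part of the cell cycle engine that answers to growth factors. They bind Cdk4 or Cdk6, and the pairs phosphorylate the retinoblastoma protein, which frees E2F factors to switch on cyclin E1 and other genes of DNA synthesis. Cyclin E1 with Cdk2 then drives entry into S phase. The inhibitors act as brakes: Cdkn2c (p18) binds Cdk4 and Cdk6 and keeps D-type cyclins off, while Cdkn1b (p27) and Cdkn1c (p57) bind cyclin-CDK pairs. In bone marrow Cdkn1c is known for holding stem cells in quiescence, and erythroid progenitors divide rapidly.

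Promoter sequence from RefSeq (GRCm38.p6) was at hand for 7 of the 10 members, in 9 windows of 250 bases that end at the base before the transcript start. The 3 members shown are those whose windows held a searched motif, with the matched letters in capitals and each strand read 5′ to 3′ toward the gene. The windows lie at chr10:127063285-127063534 on the + strand for Cdk4, chr5:3343643-3343892 on the + strand for Cdk6, and chr10:128705052-128705301 on the − strand for Cdk2.
Cdk4: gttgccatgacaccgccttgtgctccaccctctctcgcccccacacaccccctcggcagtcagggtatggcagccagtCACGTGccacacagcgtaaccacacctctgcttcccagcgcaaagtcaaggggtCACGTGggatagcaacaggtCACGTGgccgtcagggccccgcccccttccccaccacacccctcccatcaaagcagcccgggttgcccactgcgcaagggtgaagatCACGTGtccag
Cdk6: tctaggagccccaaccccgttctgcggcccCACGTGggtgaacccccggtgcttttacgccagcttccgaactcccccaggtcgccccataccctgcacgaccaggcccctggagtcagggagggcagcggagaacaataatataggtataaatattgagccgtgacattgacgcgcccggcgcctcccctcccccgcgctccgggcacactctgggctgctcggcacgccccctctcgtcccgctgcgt
Cdk2: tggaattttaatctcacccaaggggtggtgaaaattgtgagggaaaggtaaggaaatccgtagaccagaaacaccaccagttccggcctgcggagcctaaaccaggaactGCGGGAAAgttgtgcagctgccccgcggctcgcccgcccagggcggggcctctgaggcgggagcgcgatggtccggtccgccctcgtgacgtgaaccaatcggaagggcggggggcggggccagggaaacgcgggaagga

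The Cdk4 window held 4 copies of the E-box CACGTG, the motif bound by Myc and its relatives, and the Cdk6 window held 1. An E-box was found in 6.02% of 32851 promoter windows of this length, and 4 or more in 0.0213%. The Cdk2 window held 1 match to an E2F motif (TTTCCCGC or TTTGGCGC, here on the opposite strand), which occurred in 1.3% of windows. The ETS motif CCGGAAGT, of the family to which Etv6 belongs, was in none of the 9 member windows and in 2.88% of all windows. Both strands were searched, and the motifs do not overlap one another. A match describes letters in a window and nothing about binding.

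The depth of the libraries set what could be seen. Counts per library were 151216 to 2250654 in 10 HSC libraries and 3387389 to 12130358 in the MEP, so that 3 counts stood for 1.33 to 19.8 CPM (counts scaled to a common library total) in those HSC and for 0.247 to 0.886 CPM in the MEP. HSC S211I replicate 2 stood apart: it held 13154016 counts and correlated with the mean MEP profile at r = 0.978, against 0.371 to 0.704 in the other HSC. Its summed stem cell markers were 1100 CPM and its summed erythroid and MEP markers 21782 CPM. The other HSC held 1279 to 4361 CPM of the stem cell markers and 2769 to 22758 CPM of the erythroid ones, and the MEP 579 to 896 and 21049 to 25694 CPM. Its values are given apart, and "HSC" below means the other 10 libraries unless it is named. Slamf1 of the stem cell list was at 0 in every WT and P216L HSC library, in S211I replicate 1 and in double-mutant replicate 1. In MEP, Slamf1 was at 0 only in WT replicate 1, while Procr of the same list was at 0 in both WT libraries. The sum of that list thus hides members that go the other way. Etv6 counts per gene do not test the genotype labels, since the alleles are substitutions.

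**Figure D1:**
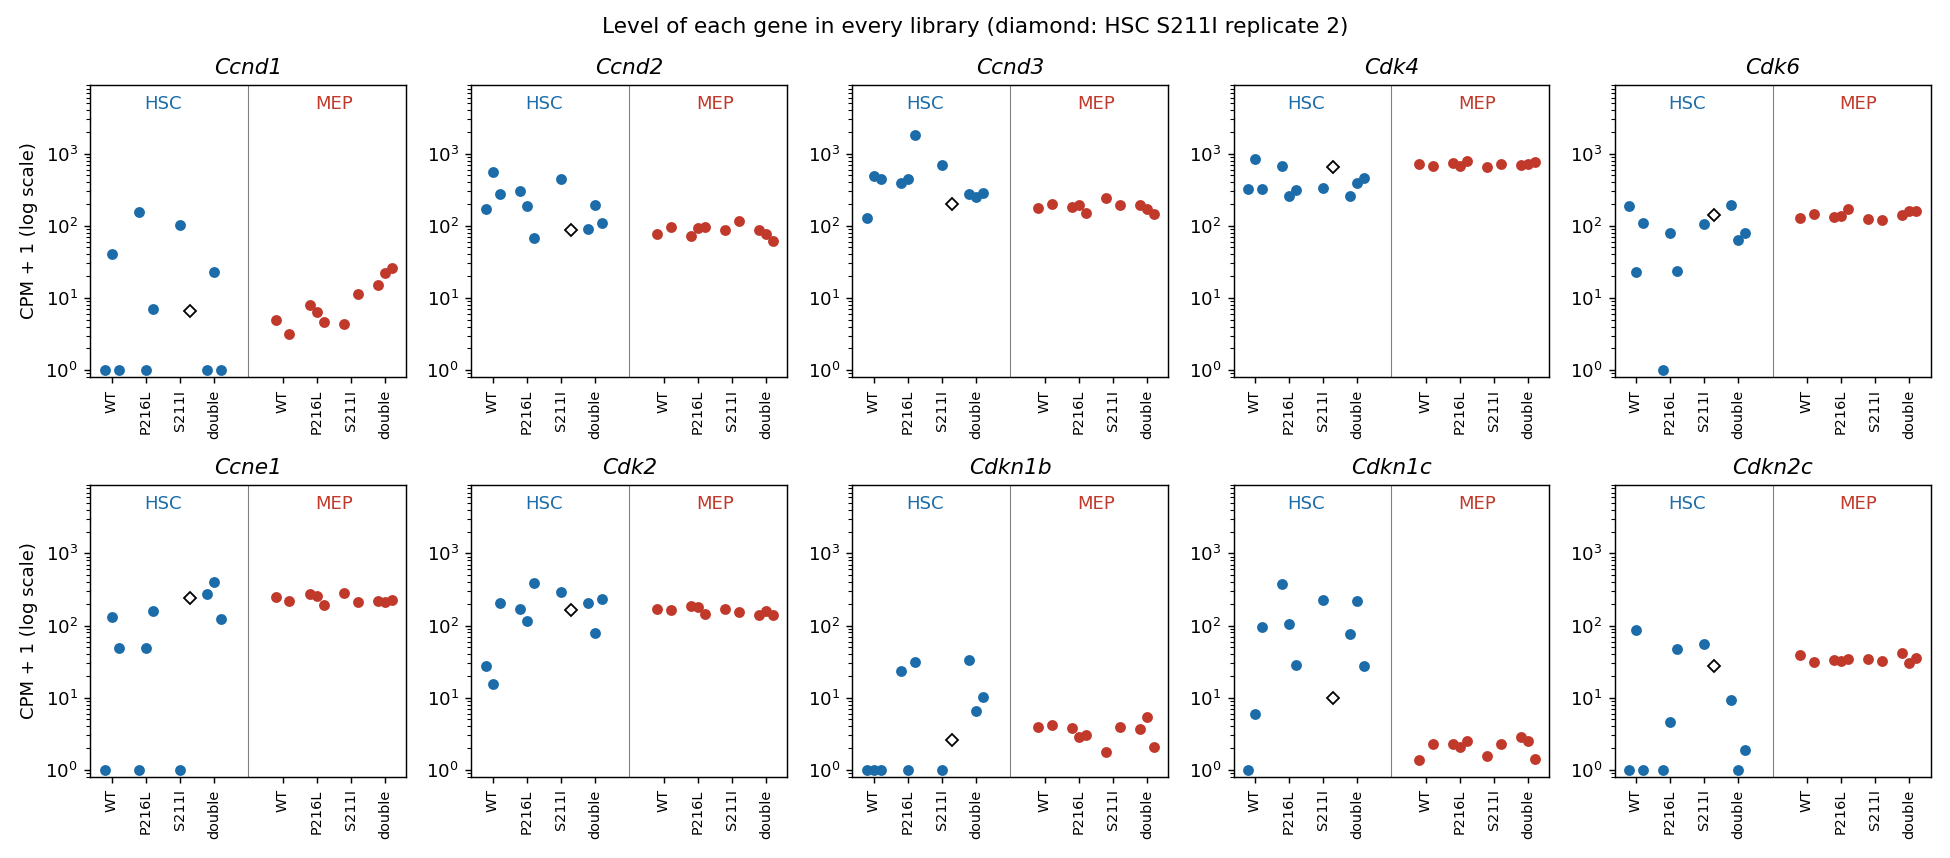
CPM + 1 of each of the 10 members in all 21 libraries on a log axis, with libraries grouped by Etv6 genotype, HSC on the left and MEP on the right of each panel; the open diamond is HSC S211I replicate 2 and points at the bottom are libraries at 0. The MEP points lie close together for most members, the HSC points spread widely, and Cdkn1c is the member whose MEP points lie lowest against its HSC points.

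Between the cell types, a brake and a kinase passed the test. Cdkn1c (p57) was lower in MEP than in HSC, by 5.78 ± 1.16 (SE) on the log2 scale, and Cdk4 was higher by 1.23 ± 0.32. These come from edgeR's quasi-likelihood test on the mean of the WT, P216L and double-mutant differences (8 libraries in MEP, 9 in HSC), with Benjamini-Hochberg adjusted p = 0.0015 for Cdkn1c and 0.0087 for Cdk4. Of the 10 members, 1 was called higher and 1 lower at an adjusted p under 0.05, where 22.2% of all 12036 genes tested were called (1946 genes or 16.2% higher, and 722 or 6% lower). An unadjusted p under 0.05 was reached by 4 members and by 34.8% of genes. The share of members called was close to that background. In these bulk libraries, fewer cells of a type and less RNA per cell cannot be told apart.

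In the HSC, Cdkn1c stood at 0, 4.87 and 93.7 CPM in WT, at 374, 104 and 27.1 CPM in P216L, at 226 CPM in S211I replicate 1, and at 76.3, 219 and 26.7 CPM in the double mutant. In the MEP, it stood at 0.346 and 1.24 CPM in WT, at 1.26, 1.06 and 1.48 CPM in P216L, at 0.561 and 1.27 CPM in S211I, and at 1.87, 1.5 and 0.406 CPM in the double mutant. Every HSC library but WT replicate 1, which had no count, was above every MEP library. HSC WT replicate 2 rested on 2 counts, and HSC S211I replicate 2 had 8.82 CPM. The mean was 115 ± 122 CPM (SD, n = 10) in HSC and 1.10 ± 0.507 CPM (SD, n = 10) in MEP.

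Cdkn1c was called lower in MEP in all 25 alternative analyses of this mean difference, with log2 changes of -6.33 to -4.54 and adjusted p up to 0.028 in edgeR, limma or DESeq2. Within one genotype the differences of -4.90 ± 2.03 in WT, -6.37 ± 1.82 in P216L and -6.07 ± 1.79 in the double mutant had adjusted p of 0.12, 0.10 and 0.11 in edgeR. The WT value was -1.17 (adjusted p = 0.72) without HSC WT replicate 3, which held 45 counts where WT replicates 1 and 2 held 0 and 2. No member was called within WT, P216L or the double mutant, where 4.1%, 0.0748% and 0.241% of genes were. Members with an unadjusted p under 0.05 numbered 1, 4 and 2 against 27.8%, 19.7% and 16.3% of genes, and DESeq2 called 2, 2 and 1. Several marker lists beyond the stem cell one were also higher in HSC. The neutrophil and monocyte list summed to 213 to 2257 CPM in HSC and 4.84 to 155 CPM in MEP, with no overlap. The megakaryocyte list, of a lineage that MEP can form, had medians of 206 CPM in HSC and 28.4 CPM in MEP. The T and NK cell list had medians of 91.3 and 12.2 CPM, and both lists reached 0 in some HSC. Csf1r of the neutrophil and monocyte list, and Cd3d and Cd8a of the T and NK cell list, were at 0 in all 10 HSC. The B cell list had medians of 21.9 and 12.2 CPM and also reached 0 in HSC. The mast cell and basophil list went the other way, with medians of 0 CPM in HSC and 8.65 CPM in MEP. The endothelial and stromal list ranged from 24.7 to 3813 CPM in HSC and from 0.541 to 15.3 CPM in MEP. The sum of this last list was highest in P216L replicate 1, which also had the highest Cdkn1c and Ccnd1. There, Cxcl12, Cdh5, Pecam1, Kdr and Lepr were at 0 and Col1a1 supplied the whole sum. The part of such transcripts in the Cdkn1c difference was not tested.

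Cdk4, the kinase partner of the D-type cyclins, read 320, 837 and 320 CPM in WT HSC, 673, 260 and 316 CPM in P216L, 333 CPM in S211I replicate 1, and 261, 386 and 461 CPM in the double mutant. Its MEP values were 728 and 684 CPM in WT, 741, 669 and 794 CPM in P216L, 652 and 712 CPM in S211I, and 698, 714 and 760 CPM in the double mutant. The groups overlapped: HSC WT replicate 2 was above every MEP library, HSC P216L replicate 1 was above the 2 lowest, and HSC S211I replicate 2 read 644 CPM. The median of all genes tested was itself shifted by 0.73 on the log2 scale, so that Cdk4 lay 0.50 above it. With RLE size factors the shift of all genes was 0.31, Cdk4 changed by 0.75 and was not called (edgeR adjusted p = 0.085). In that scaling the members called were 0 higher and 2 lower, Cdkn1c and Ccnd3, against 1 and 1.

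**Figure D2:**
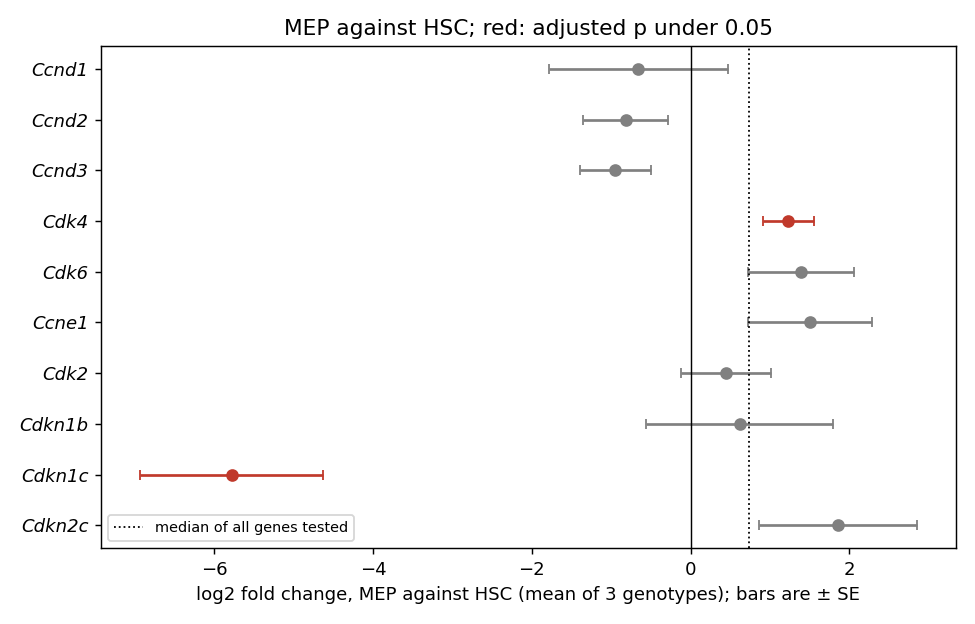
Log2 fold change (MEP against HSC, mean of the WT, P216L and double-mutant differences) with its standard error for each of the 10 members, from edgeR. Cdkn1c lies far below 0, Cdk4 lies above it with the shortest bar, and the other 8 members did not pass edgeR's test.

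The 8 other members did not pass edgeR's test of the mean cell type difference. Ccnd3, the D-type cyclin with the most reads per length in both cell types, had 520 ± 484 CPM (SD, n = 10) in HSC and 185 ± 28.2 CPM in MEP, a log2 difference of -0.95 ± 0.45 (edgeR adjusted p = 0.13). DESeq2 called Ccnd3 lower (-1.35, adjusted p = 0.0048), and so did edgeR with RLE size factors (0.025), without HSC P216L replicate 1 (0.035) and without HSC WT replicate 1 (0.048). Ccnd2 had 238 ± 157 and 85.6 ± 15.9 CPM (-0.81 ± 0.54, edgeR adjusted p = 0.30), and DESeq2 called it lower (-1.31, adjusted p = 0.0057). Ccnd1 had 32.4 ± 53.7 and 9.61 ± 7.97 CPM (-0.66 ± 1.13, adjusted p = 0.77), and 5 of the 10 HSC libraries had none of it. The fitted difference of Ccnd1 changed sign under limma and under a replicate block, so no direction is given.

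The kinase Cdk6 read 85.3 ± 65.1 CPM in HSC and 141 ± 16.9 CPM in MEP, a log2 difference of 1.39 ± 0.67 (edgeR adjusted p = 0.14). Cyclin E1 (Ccne1) read 118 ± 132 and 233 ± 28.7 CPM (1.51 ± 0.78, adjusted p = 0.17), and its partner Cdk2 read 171 ± 116 and 159 ± 16.4 CPM (0.45 ± 0.57, adjusted p = 0.65). Ccne1 was at 0 in HSC WT replicate 1, P216L replicate 1 and S211I replicate 1, and at 401 CPM in double-mutant replicate 2, which was above every MEP library. HSC S211I replicate 2 had 241 CPM of Ccne1, inside the MEP range of 193 to 282 CPM. The inhibitor Cdkn2c read 19.8 ± 30.7 CPM in HSC, where 4 libraries had none, and 33.2 ± 3.42 CPM in MEP (1.85 ± 1.00, adjusted p = 0.19). Against the median shift of all genes in this fit (0.73), Cdk6, Ccne1 and Cdkn2c lay 0.66, 0.77 and 1.12 above it. Cdk2 lay 0.28 below it, and its mean CPM was also lower in MEP, so no direction is given for Cdk2.

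Cdkn1b (p27) had few counts in both. It was at 0 in 5 of 10 HSC libraries, including all 3 WT, and reached 32.1 CPM in double-mutant replicate 1. In MEP it ranged from 0.748 to 4.38 CPM. Its fitted difference of 0.62 ± 1.18 (edgeR adjusted p = 0.80) changed sign under limma and DESeq2, and no direction is given. None of the 10 members had all MEP libraries on one side of all 10 HSC libraries, where 4.59% of genes tested did.

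The spread among HSC libraries differed from that in MEP. Coefficients of biological variation estimated by edgeR were 1.60 in all 11 HSC libraries, HSC S211I replicate 2 included, and 0.174 in MEP. Cdk4 ranged from 652 to 794 CPM over all 10 MEP libraries and all 4 genotypes, and from 260 to 837 CPM in HSC. Cdk6 likewise ranged from 118 to 172 CPM in MEP and from 0 to 192 CPM in HSC.

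Levels were set against each other per kilobase of exon, with lengths from GENCODE M21. In MEP the mean order on that scale was Cdk4 at 348 CPM per kb, Ccne1 at 116, Ccnd3 at 75.7, Cdk2 at 66.1, Ccnd2 at 12.7, Cdkn2c at 12.4, Cdk6 at 12.2, Ccnd1 at 2.57, Cdkn1c at 0.566 and Cdkn1b at 0.541. Cdk4 was above Ccne1, Ccne1 above Ccnd3, and Cdk2 above Ccnd2 in 10 of 10 libraries, and Ccnd3 was above Cdk2 in 9. Ccnd2, Cdkn2c and Cdk6 could not be ordered, since each was above the next in 6 and 5 of 10 libraries, and neither could Cdkn1c and Cdkn1b. Cdk6 had lower density than its CPM shows because its exons span 11.525 kb against 2.053 kb for Cdk4.

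In HSC the same scale gave Ccnd3 at 213 CPM per kb, Cdk4 at 203, Cdk2 at 71.0, Cdkn1c at 59.3, Ccne1 at 58.8, Ccnd2 at 35.5, Ccnd1 at 8.66, Cdk6 at 7.40, Cdkn2c at 7.38 and Cdkn1b at 2.19. Cdk4 was above Cdk2 in 9 of 10 libraries and Ccnd2 above Ccnd1 in 10. The other neighbours were within each other's spread or close to it: Ccnd3 was above Cdk4 in 4 libraries, although its mean was higher, and Cdk2 was above Cdkn1c in 7.

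The mix of D-type cyclins within a library does not depend on its size factor. Ccnd3 gave the largest mean share of D-type cyclin counts in both cell types. It was 61.9% ± 16.8 (SD, n = 10) in HSC and 65.9% ± 4.17 (SD, n = 10) in MEP. Ccnd2 gave 34.6% ± 14.96 and 30.5% ± 4.15, and Ccnd1 3.54% ± 5.95 and 3.61% ± 3.33. A two-sided permutation test over libraries gave p = 0.48 for Ccnd3, p = 0.42 for Ccnd2 and p = 0.98 for Ccnd1, or 0.78, 0.78 and 0.98 adjusted over the 4 shares tested. Cdk6 gave 18.9% ± 14.04 of the summed Cdk4 and Cdk6 counts in HSC and 16.4% ± 1.29 in MEP (permutation p = 0.59, adjusted 0.78). These shares of counts are not corrected for length.

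In WT alone, Ccnd2 gave 49.2% ± 9.55 of D-type cyclin counts in 3 HSC libraries and 30.8% ± 1.45 in 2 MEP libraries. The exact permutation test gave p = 0.2, the smallest that 3 against 2 allows, and 0.4 adjusted. HSC P216L replicate 3 was the far point, with Ccnd3 at 96.2% of its D-type cyclin counts (95% Wilson interval 95.2 to 97.0, counting error only).

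**Figure D3:**
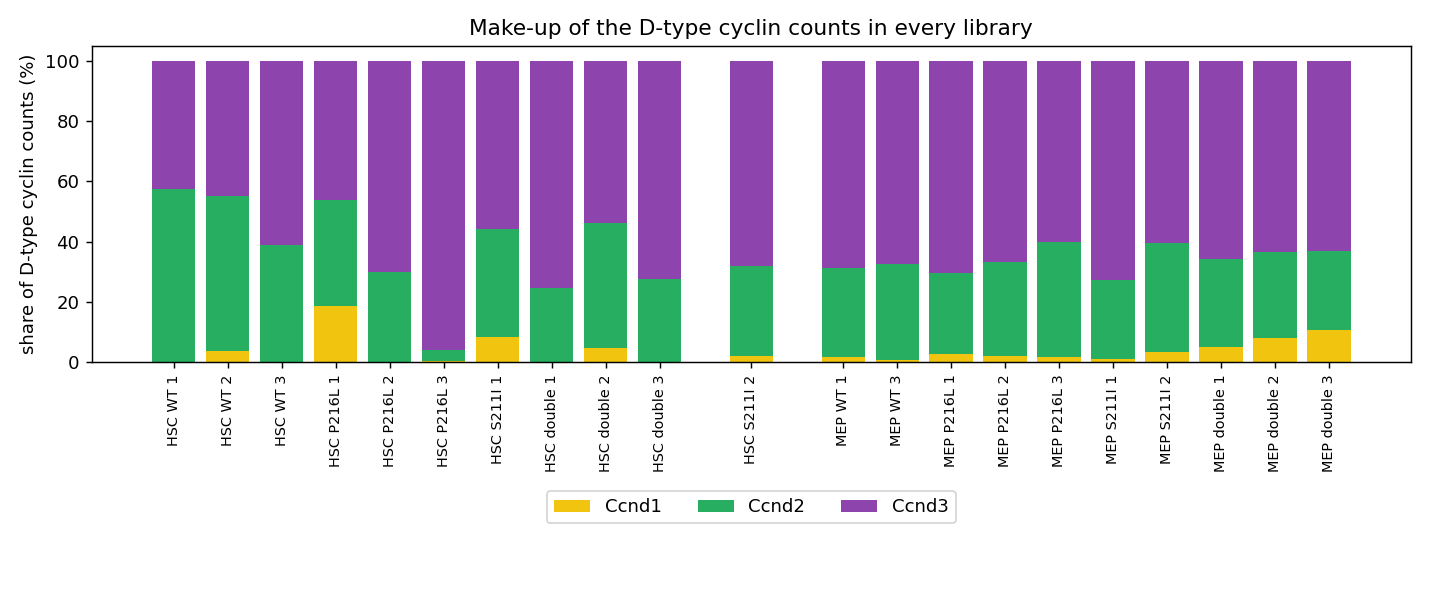
Percentage of the D-type cyclin counts of each library that came from Ccnd1, Ccnd2 and Ccnd3, for all 21 libraries in order of cell type and genotype, with HSC S211I replicate 2 shown apart. Ccnd3 and Ccnd2 make up most of each bar, and Ccnd1 reaches its largest MEP share in the double mutant, up to 10.7%.

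Of the genotype comparisons, the only one in which a member passed the test was double mutant against WT in MEP. Cyclin D1 (Ccnd1) read 3.98 and 2.10 CPM in the 2 WT libraries and 14.3, 21.1 and 24.7 CPM in the 3 double-mutant libraries. The single mutants overlapped WT: P216L read 6.98, 5.40 and 3.69 CPM, and S211I 3.31 and 10.5 CPM. All 3 double-mutant libraries were above the other 7 MEP libraries, which 1.24% of genes tested also were (2.15% in either direction). The values rested on 23.0 and 25.5 estimated counts in WT and on 68.7, 183 and 183 in the double mutant.

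The log2 difference of Ccnd1 between double mutant and WT was 2.76 ± 0.47 (edgeR adjusted p = 0.015), and 1 of 9 tested members was called where 0.102% of 10773 genes tested were, 3 higher (0.0278%) and 8 lower (0.0743%). The call was lost without double-mutant replicate 2 (2.72, adjusted p = 0.12), without double-mutant replicate 3 (2.56, 0.072) and without WT replicate 3 (2.31, 0.18), which leaves 1 WT library assumed to vary like the other groups. Against P216L the difference was 1.89 ± 0.39 (edgeR adjusted p = 0.062), and it was called by limma (0.030), DESeq2 (0.0045) and with only the groups compared (0.015). Against S211I it was 1.58 ± 0.44 (adjusted p = 0.33). No member was called in either of the last 2 comparisons, where 0.111% and 0.139% of genes were. All these comparisons share the double-mutant libraries.

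The Ccnd1 span overlaps the gene LTO1 by 818 bases, and whether counting used strand is not given in the sources used here. LTO1 read 11.4 and 21.2 CPM in WT MEP and 21.4, 16.2 and 21.9 CPM in the double mutant, and its log2 difference was 0.24 ± 0.28 (edgeR adjusted p = 0.999). Its double-mutant values lay among those of P216L, at 19.04, 25.1 and 28.9 CPM, and of S211I, at 20.01 and 19.8 CPM. Marker lists were also summed by genotype, without a test. Between these WT and double-mutant groups, 24.8% of genes tested did not overlap in CPM. The neutrophil and monocyte list summed to 36.3 to 67.2 CPM in the double mutant and 4.84 to 19.7 CPM in WT. It summed to 40.5 to 155 CPM in P216L and 33.7 to 82.3 CPM in S211I, where Ccnd1 was lower than in the double mutant. The erythroid and MEP list summed to 21049 to 22939 CPM in the double mutant and 23600 to 25694 CPM in WT. In the same order, the megakaryocyte list summed to 19.04 to 25.8 and 27.8 to 39.7 CPM. The B cell list summed to 8.95 to 13.4 and 15.4 to 24.98 CPM. The endothelial and stromal list overlapped, at 0.541 to 3.12 and 2.77 to 8.73 CPM. So did the stem cell, T and NK cell, and mast cell and basophil lists. The part of other cells in the Ccnd1 difference was not tested.

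**Figure D4:**
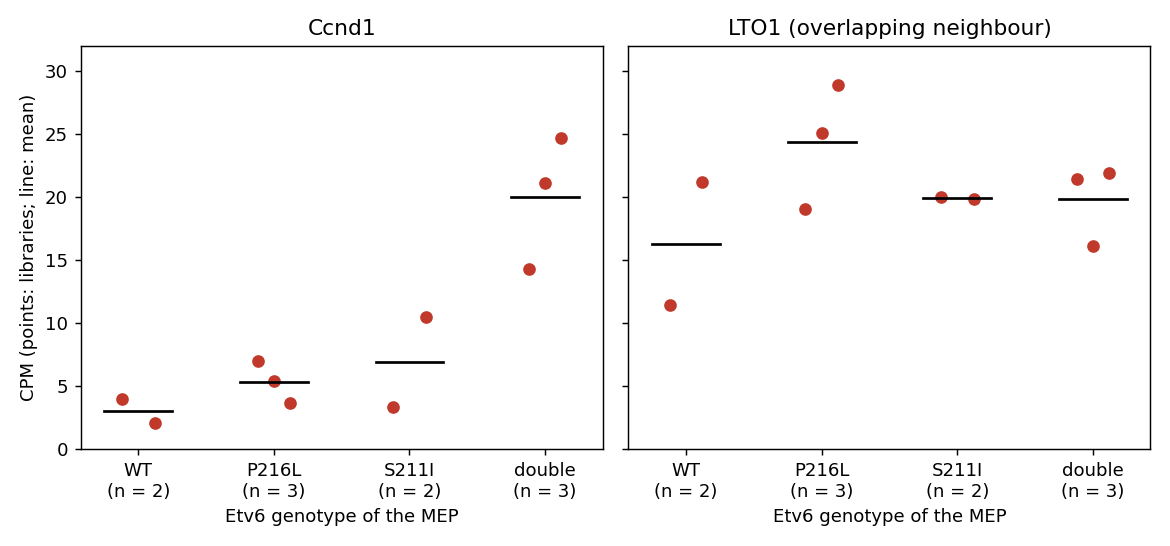
CPM of Ccnd1 (left) and of its overlapping neighbour LTO1 (right) in each MEP library by Etv6 genotype, with the group mean as a line. The 3 double-mutant libraries sit between 14.3 and 24.7 CPM for Ccnd1, above the other 7, while LTO1 lies between 11.4 and 28.9 CPM with no separation of the double mutant.

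Most other members varied less in MEP than Ccnd1 did. Ccnd2 ranged from 60.1 to 116 CPM, Ccnd3 from 146 to 245 CPM, Cdk2 from 138 to 184 CPM and Cdkn2c from 29.1 to 39.95 CPM over all 10 libraries. HSC S211I replicate 2 read 86.4 CPM of Ccnd2, 197 CPM of Ccnd3, 161 CPM of Cdk2, 142 CPM of Cdk6 and 5.66 CPM of Ccnd1, each inside the MEP range, and 26.4 CPM of Cdkn2c, just under it. The other 8 members tested in MEP differed little between double mutant and WT, with log2 differences of -0.22 to 0.14 and standard errors of 0.11 to 0.69. Cdk2 was lower in all 3 double-mutant libraries than in both WT libraries, at 138, 159 and 138 against 171 and 161 CPM, while Ccnd1 was higher in all 3. In this small design, groups that do not overlap occurred in 24.8% of genes tested, 13.8% higher and 11% lower. Cdkn1c had too few MEP counts to be tested. Against S211I, Ccnd2 (-0.44 ± 0.19), Ccnd3 (-0.36 ± 0.15) and Cdk6 (0.36 ± 0.14) had unadjusted p under 0.05 but edgeR adjusted p of 0.61, 0.61 and 0.58. With Ccnd1 that made 4 of 9 members, where 7.62% of genes had an unadjusted p under 0.05. That count stayed at 4 with RLE size factors, DESeq2 and limma. It fell to 2 with the replicate block and without double-mutant replicate 2, and to 1 without double-mutant replicate 3.

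P216L and S211I alone called no member against WT in MEP, and edgeR called 0 of 10773 genes in either comparison. Genes with an unadjusted p under 0.05 made up 5.12% and 4.74%, with 0 and 1 of the 9 members among them. DESeq2 called 0 members in both. Ccnd1 had log2 differences of 0.87 ± 0.47 in P216L and 1.18 ± 0.51 in S211I (edgeR adjusted p = 0.98 and 0.94). The other members ranged from -0.48 to 0.08 in P216L and from -0.79 to 0.22 in S211I, with Cdkn1b the lowest in both. Cdkn1b was lower in each P216L and each S211I library than in both WT libraries, but the values were 0.748 to 3.22 CPM, and non-overlap occurred in 17.6% and 36.9% of genes, with 6.97% and 15% of genes lower. Cdk6 was likewise lower in both S211I libraries, at 122 and 118 CPM against 129 and 144 CPM in WT.

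In HSC no member was called in P216L, S211I or the double mutant against WT, where edgeR called 0.106%, 0.0845% and 0.0739% of 9471 genes tested. None of the 10 members had an unadjusted p under 0.05 in any of the 3, against 12.9%, 8.15% and 10.5% of genes, and DESeq2 and limma called none. Without S211I replicate 2 no member was called either, but that leaves 1 S211I library, assumed to vary like the other groups. The S211I fit itself held replicate 2, the library shown apart, beside replicate 1, so its values are not of HSC-like libraries alone. For Ccne1 replicate 2 read 241 CPM and replicate 1 read 0. Over the 9 members other than Cdkn1b, the log2 differences ran from -1.32 to 2.10 in P216L, from -0.17 to 2.17 in S211I (replicate 2 included) and from -2.85 to 2.32 in the double mutant. Their standard errors were 0.82 to 3.08, so differences of several fold were not detectable at this depth and spread. In data simulated for double mutant against WT in HSC, edgeR recovered 0 of 67 changes of 4-fold and 5 of 66 of 16-fold.

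Values of single libraries show that spread. Ccnd2 read 170, 551 and 279 CPM in WT HSC, 298, 187 and 65.9 CPM in P216L, 441 CPM in S211I replicate 1 and 90.1, 192 and 109 CPM in the double mutant, with 1 double-mutant library inside the WT range. Cdk6 read 185, 21.9 and 108 CPM in WT, 0, 78.8 and 22.3 CPM in P216L, 104 CPM in S211I replicate 1 and 192, 62.3 and 78.2 CPM in the double mutant. Cdk2 read 26.5, 14.6 and 204 CPM in WT, 167, 116 and 382 CPM in P216L, 290 CPM in S211I replicate 1 and 202, 78.5 and 230 CPM in the double mutant. For both kinases the range of WT libraries took in most mutant libraries. Cdkn2c was at 0 in 2 WT libraries and at 85.3 CPM in WT replicate 2, the highest value among the HSC. Ccnd3 read 126, 482 and 441 CPM in WT, 388, 439 and 1826 CPM in P216L, 689 CPM in S211I replicate 1 and 277, 249 and 286 CPM in the double mutant, and the P216L difference of 1.53 ± 0.83 (edgeR adjusted p = 0.41) was 0.23 without replicate 3. Ccne1 read 0, 129 and 47.9 CPM in WT, 0, 47.8 and 159 CPM in P216L, 0 CPM in S211I replicate 1 and 269, 401 and 123 CPM in the double mutant, with the lowest double-mutant value under the highest WT value (2.32 ± 1.80, adjusted p = 0.81). Cdkn1b was at 0 in the 3 WT libraries and at 32.1, 5.41 and 9.33 CPM in the double mutant, a separation seen in 15.2% of genes in either direction and 11.3% higher. Between P216L and WT no member was separated, as 9.56% of genes were. A count of 0 in HSC WT replicate 1 allows up to 19.8 CPM, above 2 of those 3 values. The HSC libraries with the most Ccnd1 were P216L replicate 1 at 155 CPM, S211I replicate 1 at 102 CPM and WT replicate 2 at 39.0 CPM, and the double mutant read 0, 21.7 and 0 CPM. Erythroid and MEP markers summed to 2769 to 6407 CPM in WT, 7964 to 22758 in P216L and 7552 to 14189 in the double mutant. In that order, stem cell markers summed to 2619 to 4361, 1468 to 3230 and 1279 to 2484 CPM. Library totals were 151216 to 480419, 406024 to 850136 and 369439 to 2250654 counts. S211I replicate 1 had 8317 CPM, 3271 CPM and 442014 counts. The part of cell make-up and depth in the HSC values was not tested.

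A test of whether a mutant effect differed between the 2 cell types called no member, for P216L (0.0997% of genes called) or the double mutant (0.0166%), in edgeR, limma or DESeq2. Cdkn1b alone had an unadjusted p under 0.05 in each, as 16.2% and 15.2% of genes had. The double-mutant effect on Ccnd1 was larger in MEP than in HSC by 3.52 ± 2.95 on the log2 scale (edgeR adjusted p = 0.71), which turned sign without HSC WT replicate 2 (-4.67), so the rise of Ccnd1 was not shown to differ between the cell types.

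Other genes of the pathway, 40 in 5 lists, were counted in the same fits, and 38 were tested across cell types. On the mean difference 7 were higher in MEP and 2 lower, beside 16.2% and 6% of all genes, so that the 9 called of 38 were close to the 22.2% called of all genes. Those with the smallest p were Myc (1.41 ± 0.30, edgeR adjusted p = 0.0027), the transcription factor that drives growth and binds the E-box; Skp2 (4.95 ± 1.24, 0.0072), part of the ligase that destroys p27 and at 0 in all 3 P216L HSC libraries, so that its fitted size depends on the prior count; Ccng2 (-3.62 ± 0.92, 0.0075), an atypical cyclin tied to arrest; Ccna2 (1.73 ± 0.53, 0.022), the S-phase cyclin; and Cdc25a (2.47 ± 0.82, 0.031), a phosphatase that activates CDKs. By list, 6 of 10 activators and turnover genes were higher, 1 of 8 other cyclins higher and 1 lower, and 1 of the 3 tested of 5 other inhibitors lower. None of the 4 other kinases and none of the 13 pocket protein and E2F genes was called, though 11 of the 13 had positive values. The count of 7 higher moved widely: it was 2 with RLE size factors, 20 with limma, 18 without HSC P216L replicate 3, 12 without HSC S211I replicate 2, 11 with only the groups compared, and 3 or 4 without any one MEP library. Without the 3 HSC libraries nearest to MEP it was 19. In the genotype comparisons of HSC (36 tested) and MEP (38 tested) none of these genes was called in edgeR's main fit. In HSC, limma called 4 higher and 1 lower in S211I against WT, where it called 623 of 9471 genes. For the double mutant in HSC it called 2 higher, where it called 221 genes. Without HSC WT replicate 3, edgeR called 3 higher in each of P216L, S211I and the double mutant, where it called 25, 22 and 24 of 9580 genes.

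Genes whose pattern was most like a member's were named from Pearson's r of log2(CPM + 1) over 20 libraries (10 HSC, 10 MEP), which share depth and cell type, so the r values are descriptions only. Cdkn1c was most like Tbxas1 (r = 0.938), Ctsh (0.924) and Rbpms (0.907). Ccne1 was most like Hs6st1 (0.984), Gps1 (0.981) and Utp3 (0.976), and Cdk6 like Aqp9 (0.950). Ccnd2 was most like Mme (0.918) and Klhl6 (0.916), and Ccnd1 like Gm17251 (0.925). Within the 10 MEP libraries alone r fell to 0.372 for Tbxas1 with Cdkn1c and to 0.573 for Hs6st1 with Ccne1.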

How the data were processed

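RNA was extracted from sorted cells with NucleoSpin RNA XS and made into libraries with SMART-Seq v4, per the labels' protocols. The authors deposited 1 table of estimated counts per gene and library, with 6.09 to 33.1% of nonzero values not whole. FastQC, Salmon and the build GRCm39 are named per the submitters' processing notes, with no version. Annotation and strand setting were not given in the sources used here. Entrez identifiers were matched to symbols for 30211 of 30519 genes, and unmatched genes held 0.0442% of counts. Counts of Cdk4 were not whole in 21 of 21 libraries and of Ccnd3 in 18, so reads were in part shared out between transcripts or genes. Counts of Ccnd1 were not whole in 12 of the 16 libraries that had any, every MEP library among them. Those of Cdkn1b and Cdkn1c were whole throughout. The part of such sharing in the Ccnd1 difference was not tested.

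CPM used library totals. Counts were rounded and tested with edgeR 4.0.16 (TMM, minimum count 10 and minimum total 15 in filterByExpr, robust quasi-likelihood, R 4.3.3) in 3 fits: 11 HSC libraries (9471 genes tested), 10 MEP libraries (10773) and all 21 (12036). Over 14 contrasts, p-values were adjusted over all genes tested with a threshold of 0.05. Alternatives were RLE size factors, no filter, limma 3.58.1 voom with quality weights, DESeq2 1.42.0, only the groups compared, a replicate block, each library left out, the library that stands apart left out, and, for HSC genotypes, Y-linked expression as a covariate. The code was tested on simulated data. Shares used 100000 resamples (SciPy 1.17.1), and intervals and floors of 3 counts cover counting error only. Same-numbered libraries of a cell type deviated from their group means with correlations of -0.136 to 0.232, so the numbers were not taken to pair libraries.

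The members, gene lists and tests were chosen with earlier results of these data known. All members are named, along with at most 5 called pathway genes per contrast, those with the smallest p, and the 3 tested genes most correlated with a member, of which some are printed. Exon lengths are from GENCODE M21, and overlaps and promoters from RefSeq, both on GRCm38, and were not mixed with coordinates of GRCm39.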

Additional observations from a re-analysis of the deposited data

Results flagged for a closer look

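One value stood far from the others of its cell type. Ccnd3 in HSC P216L replicate 3 was 1826 CPM, the next HSC library had 689 CPM, and the gap was 0.669 of the range over 10 libraries, above Dixon's 95% critical value. Of 20 sets of 10 libraries examined (10 members in each cell type) 1 passed that value, which chance passes in about 1 set in 20 for normally distributed values. The rate for these CPM was not tested. The library was among the 3 HSC nearest to MEP (r = 0.696), and its erythroid and MEP markers summed to 22758 CPM, inside the MEP range of 21049 to 25694 CPM. It also had the highest Cdk2 of the HSC, 382 CPM. The gene Bysl, which overlaps Ccnd3 by 359 bases, ranged from 0 to 264 CPM in HSC.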

How the results depend on the processing

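No member was called under any alternative in the HSC genotype comparisons or in the tests of whether effects differ between cell types. For the mean of MEP against HSC, where edgeR called 2 members, DESeq2 called 4, limma 5 and the fit with no filter 1. Leaving out the 3 HSC libraries nearest to MEP, an alternative chosen after seeing the data, gave 4, and leaving out single libraries gave 2 to 3. Cdk4 lost its call with RLE size factors (0.75) and with no filter (1.30). Within WT, DESeq2 called 2 members and single libraries left out gave 0 to 1. Within P216L, DESeq2 called 2, the analysis without those 3 libraries 1, and single libraries left out 0 to 1. Within the double mutant, DESeq2, limma, only the groups compared and the analysis without those 3 libraries called 1 each. In MEP double mutant against WT the count was 0 to 1 over libraries left out. Against P216L it was 1 with DESeq2, limma, no filter and only the groups compared, and against S211I 1 with no filter.

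The replicate block changed no call of a member, and Ccnd1 in MEP double mutant against WT kept an adjusted p of 0.034 in edgeR with it. Between cell types the other pathway genes called went from 7 higher and 2 lower to 9 and 1 with the block. Signs reversed only in uncalled values: Ccnd1 between cell types (0.40 with the replicate block, 1.85 with limma, -0.85 to 2.17 over libraries left out), Cdkn1b between cell types (-0.45 with limma, -1.08 with DESeq2), the difference between cell types in the Ccnd1 double-mutant effect (-4.67 to 10.9 over libraries left out) and the Ccnd1 share in WT libraries (-0.0758 percentage points against 0.0714). The cause was not tested. HSC depth limits every HSC comparison, since 3 counts reach 19.8 CPM in the shallowest library, above the Ccnd1 level of 8 of the 10 MEP libraries.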
